A study of Arabidopsis thaliana with 126 samples.

Results

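The *een-1* mutant was compared with its wild type, L*er*, in dark-grown *Arabidopsis thaliana* seedlings that had seen only air. The comparison rests on 4 of the 126 samples of the series, 2 RNA-seq libraries of *een-1* and 2 of L*er*, chosen by genotype and treatment as labelled. All 4 came from whole etiolated seedlings kept for 3 days in hydrocarbon-free air. L*er* (Landsberg *erecta*) carries the *erecta* mutation, and *een-1*, which comes from a fast neutron screen in L*er*, carries it too. *een-1* is an inversion on chromosome 4 with one breakpoint in *AQI* (AQUAPORIN INTERACTOR) and the other at the start of *EEN* (EIN6 ENHANCER), so that *AQI* is broken in this mutant as well. Where a value is set beside another background, *ein6-1* carries a small deletion in *REF6* in L*er*, *ein6-1 een-1* is the double mutant, *ein2-45* is an *ein2* allele in L*er*, and *een-2* is a T-DNA insertion in Col-0, each with 2 libraries in air. Some L*er* and *een-1* libraries came from seedlings given ethylene (ET) for 4 hours.

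EEN is a small protein of the INO80 chromatin remodeling complex, and its yeast counterpart Ies6 works next to Arp5 on the nucleosome. INO80 slides nucleosomes and is tied, in yeast above all, to removal of the histone variant H2A.Z and to repair and replication of DNA. REF6 removes trimethyl marks from lysine 27 of histone H3. EIN2 is the membrane protein that carries the ET signal from the receptors to the nucleus. Paired values given without a unit are rescaled TPM of the 2 libraries of a group, and single values in brackets are log2 fold changes of *een-1* against L*er* in air. The question put to this comparison is what *een-1* alone does to the transcriptome before ET is given.

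The sequences below are the study's own primers for the joined gene, shown because they mark positions in *AQI* and *EEN*. The deposited values are given per gene and hold no read positions. They were placed by an exact match to the TAIR10.1 genome of RefSeq, on which *AQI* has 5 exons at chr4:17925180-17927188 (plus strand) and *EEN* has 3 exons at chr4:18007357-18008071 (minus strand). In the forward primer at the start of *AQI* (chr4:17925251-17925275) the capitals mark the start codon. In the primer across the intron and exon boundary of *AQI* (chr4:17926493-17926517) the capitals mark the 9 coding bases. In the reverse primer on *EEN* (chr4:18007466-18007491) the capitals mark the stop codon, read on the opposite strand to the gene. The 3 nested primers used to walk out of *EEN* lie at chr4:18007856-18007875, chr4:18007886-18007909 and chr4:18007984-18008003, in coding sequence of the first exon in this annotation.
AQI fwd: ATGagtcttcttcgtcttctcctcg
AQI cDNA intr/exon fwd: ctaattaagatgttagCTGGGGCAG
EEN cDNA rev: CTActtgagaacaacagcagcattgc
TAIL1: gggaggtcgggaggaagatc
TAIL2: tcagcttgaagaatctgcttgagg
TAIL3: cgacgccaccactatatctg

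*AQI*, which encodes a peptidase-family protein, had the smallest p-value of the comparison. Its level, in TPM (transcript abundance scaled to a common total within each library) and rescaled between libraries by the median of ratios, was 111 and 109 in L*er* and 13.2 and 12.5 in *een-1*. The *een-1* libraries thus lay far below both wild-type libraries, an 8.55-fold drop and a log2 fold change of -3.00 (SE 0.13, adjusted p = 3.8e-09, limma with Benjamini-Hochberg adjustment). The same gene changed by -3.05 after ET and by -3.41 when *een-1* was added to *ein6-1*. In *een-2*, where only *EEN* is hit, *AQI* stood at 124 and 104 against 136 and 138 in Col-0 (log2 fold change -0.27, SE 0.12, adjusted p = 0.19), and the difference between the alleles was -2.75 (SE 0.15, adjusted p = 1.4e-05). The allele difference was added after the values had been seen, and the alleles also differ in background and in the table they were deposited in.

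*EEN* itself was not called in *een-1*. Its mRNA stood at 26.8 and 24.0 in L*er* and at 32.4 and 25.4 in *een-1*, with overlapping groups (log2 fold change 0.17, SE 0.22, adjusted p = 0.61). In *een-2* it stood at 0.311 and 0.947, against 49.7 and 39.1 in Col-0, a log2 fold change of -4.82 (adjusted p = 0.00012). A value for *EEN* in *een-1* counts reads assigned to the gene and does not by itself say whether the transcript still encodes EEN. The study sequenced cDNA of the joined gene and reported a shifted reading frame with an early stop in the first *EEN* exon.

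**Figure D1:**
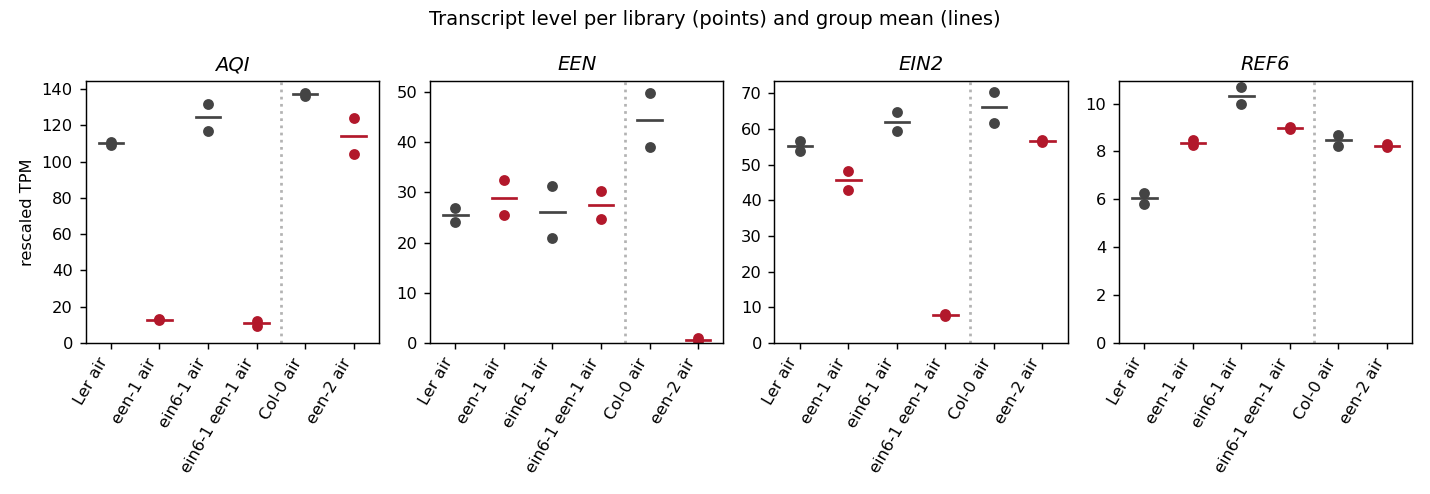
Rescaled TPM of *AQI*, *EEN*, *EIN2* and *REF6* in each air library of 6 genotypes, with a point for each library and a line at the group mean. *AQI* is at most 13.2 in *een-1* and *ein6-1 een-1* and at least 104 in the others, *EEN* is below 1 in *een-2*, and *EIN2* is at 8.14 and 7.59 in *ein6-1 een-1*.

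*EIN2* moved little in the single mutant. The L*er* libraries gave 53.9 and 56.7 and the *een-1* libraries 48.1 and 43.0, without overlap, for a log2 fold change of -0.28 (SE 0.20, adjusted p = 0.32, limma). In *ein6-1* the same allele went with a drop from 64.7 and 59.3 to 8.14 and 7.59, a log2 fold change of -2.83, and the difference between these effects was 2.55 (SE 0.28, adjusted p = 1.5e-05). The single-mutant value depends on the processing. It was -0.55 (adjusted p = 0.0009) once a dependence on transcript length was taken out, an alternative chosen after seeing the data, and 0.10 on the TPM as deposited. *REF6* gave 5.82 and 6.27 in L*er* and 8.46 and 8.27 in *een-1* (log2 fold change 0.41, SE 0.22, adjusted p = 0.18).

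The genes carried along by the inversion showed small changes. From the start of *AQI* to the end of *EEN* the reference spans 82.9 kb, and of the 29 genes annotated between them 27 were tested, of which 2 rose and 4 fell (10.7% and 14.0% of all tested genes did), with log2 fold changes from -0.68 to 0.76 and a median of -0.05. AT4G38370, a phosphoglycerate mutase family gene, rose (7.57 and 8.25 in L*er*, 13.9 and 14.3 in *een-1*) and so did *CGL1*, an enzyme of N-glycan processing (0.33). AT4G38250, an amino acid transporter family gene, fell from 131 and 132 to 88.4 and 75.4, the largest drop inside the span. *GGR*, *LAZ1* and *EXLA2* were the other genes that fell there, by 0.48, 0.47 and 0.45 on the log2 scale. Of the 10 tested genes beyond *AQI*, 1 rose (AT4G38150, a pentatricopeptide repeat gene, 1.17) and none was called lower. Of the 10 beyond *EEN*, 1 rose (*PLC1*, 0.70) and 3 fell, AT4G38540 the most, from 54.4 and 52.0 to 26.9 and 23.8.

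**Figure D2:**
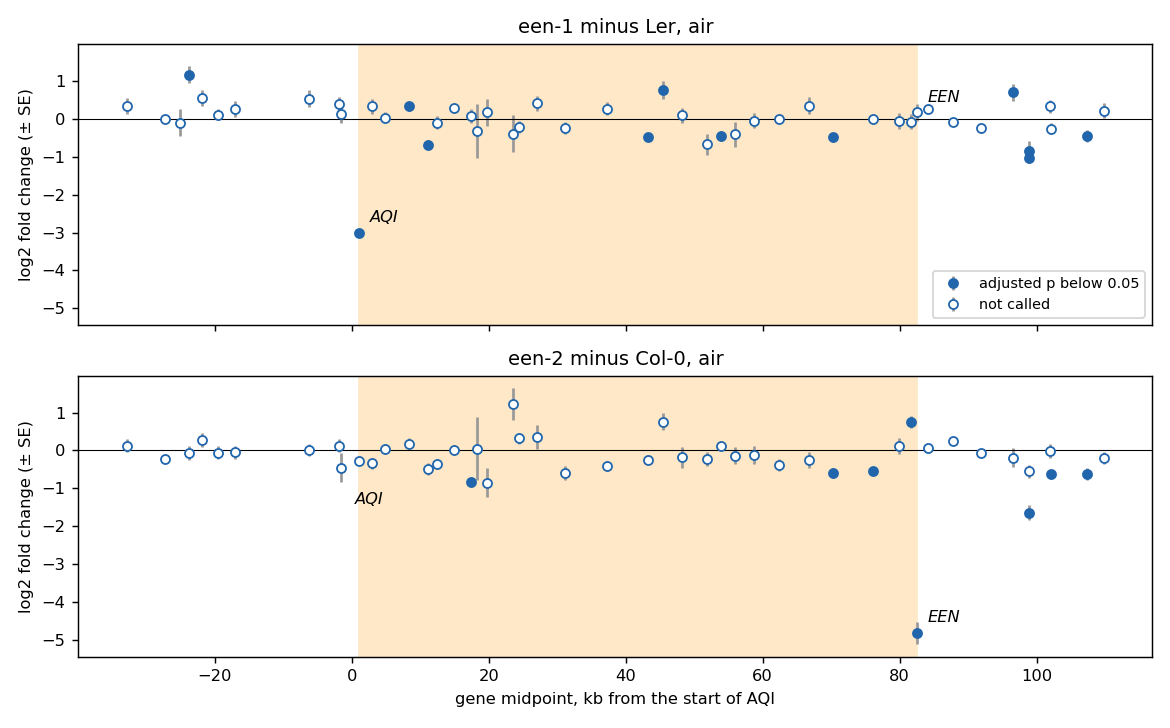
Log2 fold change (± SE) of *een-1* against L*er* (top) and of *een-2* against Col-0 (bottom) in air for the tested genes from 10 genes before *AQI* to 10 genes after *EEN*, against the distance of each gene's midpoint from the start of *AQI* in kb, with filled marks for called genes and the span from *AQI* to *EEN* shaded. In the top panel *AQI* lies at -3.00 and the genes between the breakpoints scatter between -0.68 and 0.76, and in the bottom panel *EEN* lies at -4.82.

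Across the genome 2196 genes were higher in *een-1* (10.7% of the 20592 genes tested) and 2879 were lower (14.0%), at an adjusted p of 0.05 in limma. Most changes were small, with medians of 0.63 and -0.64 on the log2 scale, and 194 of the higher and 517 of the lower genes moved by more than 2-fold. The median log2 fold change over all tested genes was -0.002, which the rescaling sets. On the TPM as deposited that median was 0.32 and 88.9% of the calls were increases, against 43.3% after rescaling, so every direction given here is relative to the typical gene. The count also hangs on single libraries, at 1746 without *een-1* replicate 2, 2049 without L*er* replicate 1, 2730 without L*er* replicate 2 and 3310 without *een-1* replicate 1. With 2 libraries a side, an exact permutation test of 1 gene could not go below p = 0.33, and the p-values rest on a spread pooled over genes and groups. The libraries are called biological replicates by the study, and the sources used here do not say whether each came from a culture of its own.

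Several features of the libraries moved together with genotype. Genes for ribosomal RNA took 16.1% and 11.6% of the deposited TPM in L*er* and 6.42% and 2.80% in *een-1*, against 3.34% to 23.5% in the other 16 libraries of the same table. The share of the chloroplast genome was 2.26% and 0.899% in L*er* and 0.349% and 0.329% in *een-1*, and 34 of its 77 tested genes were lower. The share of the mitochondrial genome was 0.615% and 0.218% against 0.112% and 0.0635%, with 25 of 49 lower and 1 higher. Taking all these genes out before rescaling gave 5015 called genes in place of 5075. Their part in the other results was not tested further.

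Change also followed transcript length. The median log2 fold change climbed from -0.15 in the quintile of genes with the shortest transcripts to 0.18 in the quintile with the longest, and the share of genes called higher climbed from 3.26% to 19.5% while the share called lower was 3.61% in the longest. The comparison after ET showed the same slope, from -0.20 to 0.19. For *ein6-1 een-1* against *ein6-1* the end quintiles stood at 0.00 and 0.04, and for *een-2* against Col-0 at 0.07 and 0.00. Lists with 5 or more members in the longest quintile are therefore given below with their counts after the length trend was removed.

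**Figure D3:**
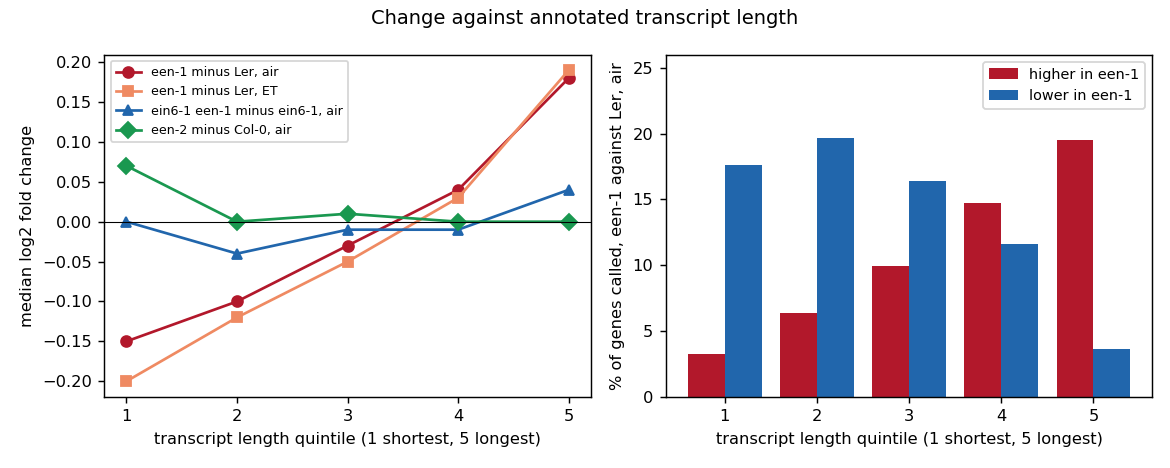
Left, median log2 fold change in each quintile of annotated transcript length for the 4 comparisons. Right, percent of the genes in each quintile called higher or lower in *een-1* against L*er* in air. Both comparisons of *een-1* with L*er* slope upwards with length, from -0.15 to 0.18 in air, and the other comparisons stay between -0.04 and 0.07.

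The largest decreases held retroelement, organellar and ribosomal transcripts beside protein-coding genes. *SADHU3-2*, a Sadhu element (a plant non-coding retrotransposon), read 76.8 and 59.9 in L*er* and 0.918 and 0.336 in *een-1*, a log2 fold change of -5.43 (SE 0.24, adjusted p = 3.8e-09). It was also low in *ein6-1* (5.64 and 2.74) and in *ein6-1 een-1* (3.24 and 2.65), high in *ein2-45* (81.1 and 90.3), and higher in *een-2* (15.5 and 16.3) than in Col-0 (9.70 and 7.25). AT4G19950 read 14.2 and 14.3 in L*er* and 0.324 and 0.474 in *een-1* (-3.45, adjusted p = 2.9e-07), and 15.4 and 14.7 in Col-0 against 0.466 and 0.525 in *een-2* (-3.42). The drop thus went with both *een* alleles, and the difference between them was -0.10 (SE 0.25, adjusted p = 0.84). It was low in *ein6-1* without *een-1* too, at 0.549 and 1.45. *LpxC4*, of lipid A synthesis, read 7.55 and 19.4 in L*er* and was listed at 0 in both *een-1*, both *ein6-1* and both *ein2-45* libraries (-3.72, SE 0.92). It was uneven elsewhere, at 6.06 and 0 in *een-1* after ET and 36.4 and 0.75 in *een-2* (44.5 and 27.5 in Col-0). *LpxC4* was not called after ET or in *een-2*.

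The other large decreases, *AQI* apart, included organellar and ribosomal genes and genes with uneven libraries. ATCG00970 and ATCG01160 carry identical values in every library (10700 and 2820 in L*er*, 546 and 651 in *een-1*), as do ATMG00980 and AT2G07675, so that their reads cannot be assigned to 1 locus. AT2G01010, an 18S ribosomal RNA gene, read 119 and 80.5 against 21.3 and 5.23. The L*er* libraries were furthest apart for the chloroplast pair, by 1.92 on the log2 scale, and for AT1G15405, by 1.88, while the *een-1* libraries were furthest apart for AT5G18661, at 5.26 and 0. AT4G34881 read 7.91 and 7.22 in L*er* and 0.232 and 0 in *een-1*. *MT1B*, a metallothionein gene, AT2G07725 and ATMG01190 lay between -2.66 and -2.84.

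The largest increases were mostly of genes that were low in L*er*. *SNOR37-2*, a small nucleolar RNA gene, was listed at 0 in both L*er* libraries and read 27.2 and 47.2 in *een-1*, but 1 of the 2 libraries was also above 0 in *ein6-1 een-1* and in *ein2-45*. AT2G15555 read 3.40 and 3.68 in L*er* and 43.0 and 34.1 in *een-1* (log2 fold change 3.11, SE 0.23, adjusted p = 3.3e-06), and rose by 1.57 in *ein6-1* as well. AT1G42705 went from 0.783 and 0.764 to 7.27 and 8.63 (2.33), and AT3G43340, AT3G30700, AT5G02690 and AT5G27345 rose by 1.85 to 2.20. AT5G27345 read 0.636 and 0.709 in L*er* and 4.80 and 5.24 in *een-1*. It also read 3.87 and 2.25 in *ein6-1* and 4.04 and 4.52 in *ein2-45*. AT5G02690 was uneven in L*er* (1.25 and 4.80) and was not called after ET (-0.28) or in *ein6-1* (0.34). AT3G43340 and AT3G30700 were called higher in both. *DDB1B*, a component of CUL4 ubiquitin ligases that act in DNA repair and in chromatin, rose from 2.80 and 3.25 to 9.42 and 10.4 (1.44) and by 1.52 in *ein6-1*, and stood at -0.23 in *een-2* (adjusted p = 0.46). *Cpn60beta2*, a plastid chaperonin, rose from 29.5 and 32.3 to 80.4 and 105 (1.54). *FSD1*, an iron superoxide dismutase of the chloroplast, rose from 8.05 and 8.84 to 20.8 and 34.6 (1.56, adjusted p = 0.0097), with that call lost without L*er* replicate 1 or *een-1* replicate 2.

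A smaller set of genes moved alike with either *een* allele. Of the genes called higher in air and tested in all 4 comparisons, 81 of 2151 (3.77%) were called higher in each of them, and 215 of 2839 (7.57%) were called lower in each. The 4 comparisons have no library in common. These genes were picked for being called in all 4, so the values that follow are descriptions. *HDA2*, a histone deacetylase, read 5.90 and 8.67 in L*er* and 0.640 and 0.560 in *een-1*, and its log2 fold change was -2.35 in air, -2.12 after ET, -2.32 in *ein6-1* and -2.42 in *een-2*. *VSR5*, a vacuolar sorting receptor, gave -1.70, -1.61, -1.69 and -1.74 in the same order. *CDPK9*, a calcium-dependent protein kinase, dropped from 15.0 and 15.3 to 3.58 and 3.33 (-1.86) and by -3.03 in *ein6-1*. *PnsB1*, a subunit of the chloroplast NDH complex, and *PHT4;1*, a plastid phosphate transporter, had -1.39 and -1.19 in air and -2.46 and -1.82 in *een-2*.

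Among the shared increases, *THY-2*, a thymidylate synthase that supplies DNA synthesis, read 3.76 and 3.94 in L*er* and 10.8 and 10.7 in *een-1*, and 3.08 and 3.83 in Col-0 and 9.96 and 10.4 in *een-2*. The groups do not overlap in either background, and the log2 fold changes were 1.27 and 1.33. *FLR1*, a leucine-rich repeat gene, had 1.43 in air and 2.01 in *een-2*, and *XYP1*, a proteoglycan of vessel formation, 1.54 and 1.70. *EMS1*, a receptor kinase of anther development, read 1.37 and 1.55 against 4.83 and 4.89 (1.25), *SIEL*, a partner of the root factor SHORT-ROOT, 2.02 and 1.59 against 4.59 and 4.90 (1.04), and *ALC*, a fruit bHLH factor, 4.89 and 6.01 against 10.5 and 12.6 (0.96).

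**Figure D4:**
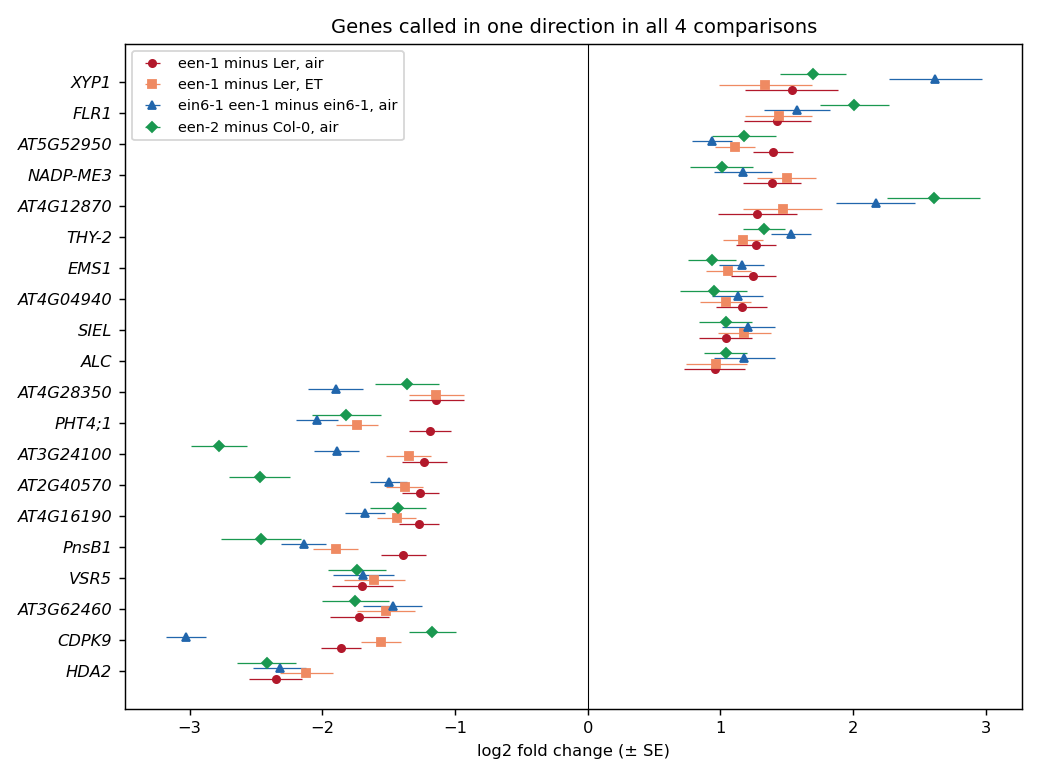
Log2 fold change (± SE) in each of the 4 comparisons for 10 genes called higher and 10 called lower in all 4. In each direction these are the genes whose smallest change over the 4 comparisons was largest. The marks of *HDA2* lie between -2.42 and -2.12 in every comparison, while *CDPK9* reaches -3.03 in *ein6-1*.

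After ET 1744 genes were called higher in *een-1* than in L*er* (8.47%) and 2236 lower (10.9%). This count of 3980 moved to 738 without *een-1* ET replicate 2, 794 without L*er* ET replicate 1, 1410 on the TPM as deposited (61.1% of them higher) and 38 in a fit of only the groups compared, and the overlaps that follow rest on it. Of the air calls, 1147 of 2196 increases (52.2%, and 65.8% of those after ET) and 1489 of 2879 decreases (51.7% and 66.6%) were called the same way there, and 4 and 1 the opposite way. In the test of the difference itself 1 gene passed, with 1274 genes under an unadjusted p of 0.05. That gene, *MIR159a*, was listed at 0 in every library compared except those of L*er* after ET (2.21 and 2.00), the group that took it past the filter, so nothing is read from it.

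The effect of *een-1* differed between L*er* and *ein6-1* for many genes. Adding *een-1* to *ein6-1* called 3491 genes higher (17.0%) and 3859 lower (18.7%), and 910 of the 2196 increases (41.4%, and 26.1% of those in *ein6-1*) and 1381 of the 2879 decreases (48.0% and 35.8%) in L*er* were among them. Another 148 and 154 were called the opposite way, and the effect differed between the backgrounds for 2993 genes (1451 more positive and 1542 more negative in L*er*). Without *ein6-1* replicate 1 the calls in *ein6-1* numbered 4320 in place of 7350, and the genes whose effect differed numbered 1876 without *ein6-1 een-1* replicate 1 and 1892 without L*er* replicate 1. *FSD1* changed in opposite directions, by 1.56 in L*er* and -4.26 in *ein6-1* (difference 5.82, SE 0.54, adjusted p = 3.2e-06). The L*er* air libraries were low for *FSD1*, at 8.05 and 8.84. It read 33.7 and 72.2 in *ein6-1*, 29.6 and 28.8 in *ein2-45* and 32.7 and 22.2 in L*er* after ET. After ET *een-1* changed *FSD1* by 0.26, which was not called. For *een-2* against Col-0, 762 of 20152 genes were higher (3.78%) and 1064 lower (5.28%), and these held 200 of the 2151 increases (9.30%, and 26.7% of those in *een-2*) and 369 of the 2839 decreases (13.0% and 35.8%), while 19 and 57 were called the opposite way. That count of 1826 fell to 376 without *een-2* replicate 2, 454 without Col-0 replicate 2, 735 without Col-0 replicate 1, 1213 with no minimum TPM and 70 in a fit of only the groups compared. The effects of the alleles differed for 468 genes more positive and 952 more negative in *een-1*, of 20558 tested in the fit of these 12 libraries.

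Most genes of DNA replication and cell division rose. Of 15 tested members 11 were higher and none was called lower, with a median log2 fold change of 0.53 where all genes had -0.002 and 10.7% were higher. The MCM genes encode the helicase that opens replication origins, and the 6 members measured all rose, by 0.47 to 0.73. *MCM3* read 6.36 and 7.58 in L*er* and 12.0 and 12.4 in *een-1* (0.73, SE 0.15, adjusted p = 0.0038), and *MCM7* 8.06 and 8.40 against 12.3 and 12.6. *ORC1A*, of the origin recognition complex, rose by 0.70, the mitotic kinase gene *AUR1* by 0.95 (12.9 and 12.2 against 24.1 and 26), *KNOLLE*, the syntaxin of the cell plate, by 0.53, and the mitotic kinases *CDKB1;1* and *CDKB2;1* by 0.44 and 0.54. *PCNA1*, *PCNA2*, *CYCA2;1* and *CYCD3;1* were not called (0.14 to 0.56). The list stood at a median of 0.45 after ET (8 called), 0.36 in *ein6-1* (4 called) and 0.33 in *een-2*, where limma called none and 6 had an unadjusted p under 0.05. Of its members 7 are in the longest quintile, and 8 were called with the length trend removed. Without 1 library, between 2 (without L*er* replicate 1 or *een-1* replicate 2) and 6 of the 11 remained called.

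Some genes of the DNA damage response rose. Of 17 tested 4 were called higher, against 10.7% of all genes, and none was called lower (median 0.38). With the length trend removed 6 were called higher, and 8 of the 17 are in the longest quintile. *CYCB1;1*, a cyclin that plants switch on after strand breaks, read 2.67 and 2.86 in L*er* and 7.35 and 6.40 in *een-1* (1.06, adjusted p = 0.0035). *BRCA1* and *PARP1*, both of break repair, rose by 0.72 and 0.42, and *SMR7*, an inhibitor of the cell cycle, by 1.09 from uneven L*er* values (2.48 and 0.709, against 3.99 and 4.39). *ATM*, a kinase that signals strand breaks, was at 0.60 and was not called. Without *een-1* replicate 2 only 1 of the 4 remained called. In *ein6-1* the log2 fold changes of *CYCB1;1*, *BRCA1*, *PARP1* and *SMR7* were -0.01, 0.20, -0.21 and -0.02.

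Genes for some other INO80 subunits were higher. *INO80*, the ATPase of the complex, rose from 9.87 and 12.3 to 21.3 and 22.5 (0.93, SE 0.21, adjusted p = 0.0057), *RIN1*, a RuvB-like ATPase, by 0.47 and *ARP5*, the partner of EEN, by 0.43, so 3 of 7 were called, against 10.7% of all genes. *INO80* changed by 0.83 after ET, 1.04 in *ein6-1* and 0.18 in *een-2*. None of the 3 calls held without *een-1* replicate 2, and 2 held with the length trend removed. Of the 7 tested genes for the SWR1 complex, which deposits H2A.Z, and for H2A.Z itself limma called none (median 0.01), with 1 at an unadjusted p under 0.05 and *HTA9* at 167 and 142 in L*er* and 130 and 134 in *een-1*. Of these 7, 4 are in the shortest quintile, and 2 were called higher with the length trend removed (median 0.11). Among 11 genes that remove or set H3K27me3, *JMJ30*, a demethylase with a role in the clock, rose (13.4 and 13.4 against 19.6 and 17.7), a call lost without L*er* replicate 1 or *een-1* replicate 1, and the Polycomb genes *CLF*, *SWN*, *EMF2* and *FIE* lay between -0.02 and 0.31. With the length trend removed 2 of the 11 were called higher, and 5 are in the longest quintile.

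**Figure D5:**
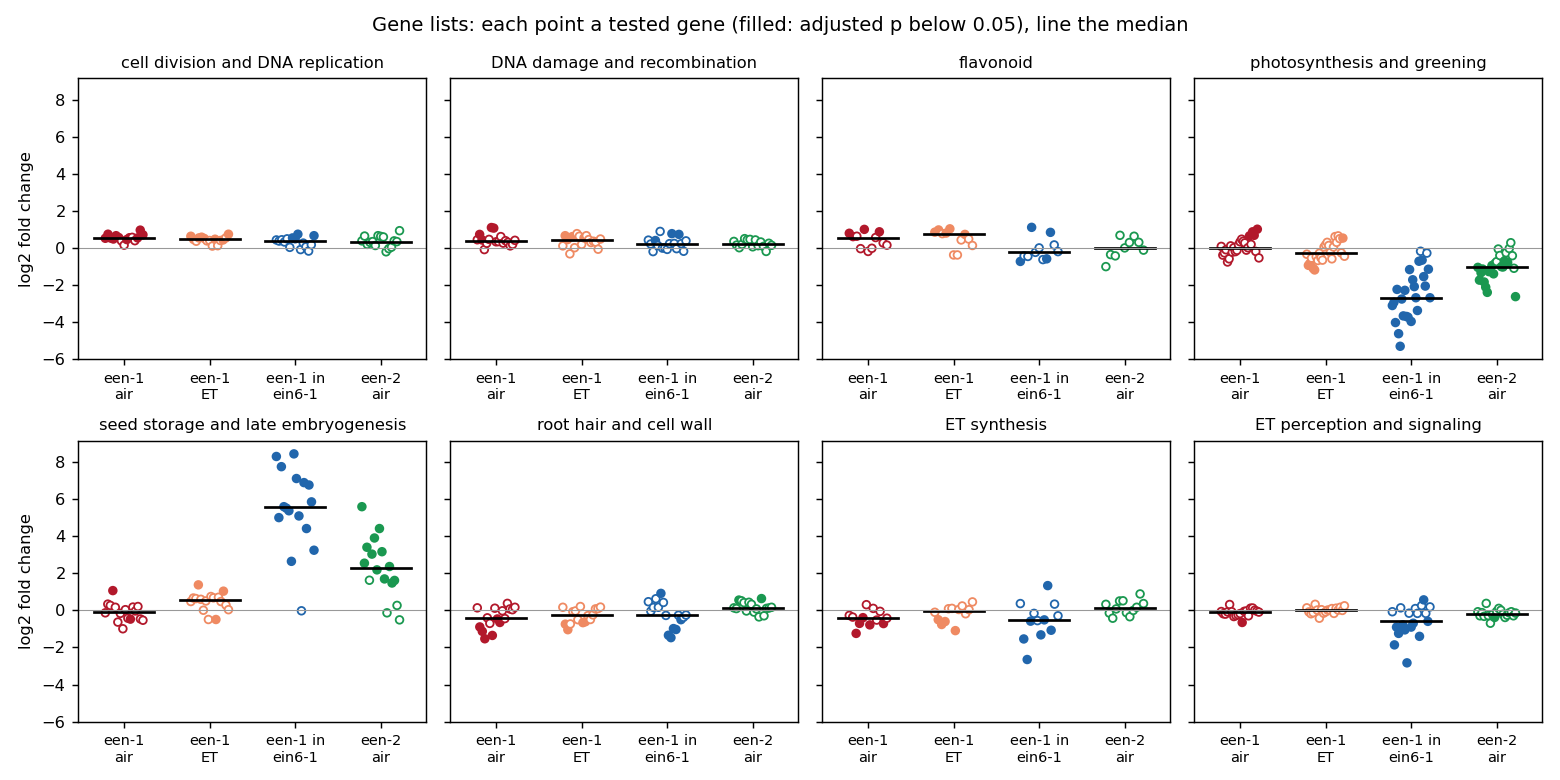
Log2 fold change of every tested member of 8 of the 18 gene lists in the 4 comparisons, with a point for each gene, filled where called, and a line at the median. In the air comparison of *een-1* the medians lie between -0.42 and 0.55, while the greening list reaches -2.70 and the seed list 5.56 when *een-1* is added to *ein6-1*.

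Part of the ET synthesis genes fell. Of 12 tested 5 fell and none was called higher (median -0.41), with 14.0% of all genes lower. *ACO4*, an ACC oxidase that makes ET from its precursor, read 118 and 123 in L*er* and 50.9 and 49.9 in *een-1* (-1.24, SE 0.18, adjusted p = 0.00044). *ACO5* fell by 0.70 on the log2 scale, and the ACC synthase genes *ACS5*, *ACS9* and *ACS2* by 0.78, 0.71 and 0.39. *ACO5* and *ACS9* also lay below L*er* in *ein6-1* and *ein2-45* in air. *ACO5* read 631 and 624 in L*er*, 396 and 378 in *een-1*, 409 and 408 in *ein6-1* and 240 and 263 in *ein2-45*. *ACS9* read 37.3 and 33.7, 24.4 and 18.5, 7.66 and 9.17, and 7.58 and 7.87 in the same order. *ACO4* lay below *een-1* in *ein2-45* but not in *ein6-1*. *ACS5* and *ACS2* lay below *een-1* in neither. *ACO4* went to -0.76 after ET, -2.65 in *ein6-1* and -0.42 in *een-2*, and the list's median in *een-2* was 0.12 with no call by limma and 3 genes under an unadjusted p of 0.05. On the TPM as deposited 1 of the 5 remained called, and 3 did so without L*er* replicate 1, L*er* replicate 2 or *een-1* replicate 2.

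Few genes of ET perception and signalling were called. Of 19 tested, *EIL2*, an EIN3-like gene, was called lower (3.49 and 2.72 against 1.83 and 1.40), and the median was -0.08. That share is below the 14.0% of all genes, and the call was lost without L*er* replicate 1 or *een-1* replicate 2 and on the deposited TPM. The kinase gene *CTR1* read 34.7 and 36.8 in L*er* and 36.0 and 32.1 in *een-1*, the transcription factor gene *EIN3* 85.6 and 90.5 against 75.2 and 74.4, and the receptor gene *ERS1* 91.0 and 83.9 against 82.1 and 70.0. In *ein6-1* the same allele went with 10 of the 19 lower and a median of -0.59. With the length trend removed 7 were called lower in L*er*, *EIN2* among them, and 10 of the 19 are in the longest quintile. Among 13 ET-related transcription factors *TEM1*, a repressor of flowering, fell (57.5 and 52.0 against 32.8 and 32.1, -0.73), also a share below the 14.0% of all genes. The call of *TEM1* was lost on the deposited TPM and kept with any 1 library left out.

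Part of the root hair and cell wall genes fell as well. Of 16 tested 6 fell, against 14.0% of all genes, and none was called higher (median -0.42). *EXPA18*, a root hair expansin, read 146 and 117 in L*er* and 48.6 and 40.8 in *een-1* (-1.53, SE 0.27, adjusted p = 0.0016), *PRP3*, a root hair wall protein, 403 and 333 against 162 and 128 (-1.35), and *EXPA7* 35.8 and 31.1 against 17.2 and 12.5 (-1.13). *RSL4*, the bHLH factor that drives root hair growth, fell by 0.89 on the log2 scale, and *XTH4* and *EXPA8*, of wall loosening in growing organs, by 0.65 and 0.46. The root hair genes were also low in *ein2-45* in air, near or below *een-1*. There *EXPA18* read 33.4 and 47.6, *PRP3* 78.5 and 99.4, *EXPA7* 11.2 and 15.8 and *RSL4* 7.95 and 8.01. *XTH4* (1780 and 1530) and *EXPA8* (639 and 569) were not below *een-1* in *ein2-45*. In *ein6-1* in air *EXPA18* read 62.6 and 101 and *PRP3* 159 and 273. *EXPA18* stood at -0.73 after ET, 0.63 in *ein6-1* and 0.52 in *een-2*, and in the tests of the differences 4 members of the list were more negative and 3 more positive in L*er* than in *ein6-1*, *EXPA8* and *XTH4* among the latter. For *een-1* against *een-2* 6 were more negative and 1 more positive. On the deposited TPM 3 of the 6 remained called, as did 3 without *een-1* replicate 2 and 4 without L*er* replicate 1 or 2. In whole seedlings fewer root hair cells and less RNA in each of them cannot be told apart. The 6 root markers fixed for the tissue check summed to 655 and 554 in L*er* and 315 and 267 in *een-1*, with *EXPA7*, *EXPA18* and *PRP3* lower, *COBL9* not called (-0.40) and the vascular genes *PHO1* and *SHR* higher (0.43 and 0.40). These 3 decreases kept their calls with any 1 library left out. Both increases lost theirs without L*er* replicate 1 or either *een-1* replicate.

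Greening and seed genes moved less in the single mutant than in *ein6-1 een-1*. Of 25 photosynthesis and greening genes 4 rose, a share near the 10.7% of all genes, and none was called lower (median 0.00), while 23 were lower in *ein6-1 een-1* against *ein6-1* (median -2.70) and 17 in *een-2* (median -1.04). In the tests of the differences 23 were more positive in L*er* than in *ein6-1*, and 10 more positive for *een-1* than for *een-2*. The genes that rose were *PORA* and *PORB*, the protochlorophyllide oxidoreductases of etiolated tissue (360 and 396 against 583 and 809 for *PORA*), *GLK1*, an activator of chloroplast genes, and *ELIP1*, a light-induced pigment-binding protein. Of these 4 calls 1 held without L*er* replicate 1 and 1 without *een-1* replicate 2. All 4 genes also lay above L*er* in *ein6-1* and *ein2-45* in air. *PORA* read 567 and 737 in *ein6-1* and 656 and 831 in *ein2-45*, and *ELIP1* 5.20 and 4.83 and 9.10 and 8.01 (2.31 and 3.61 in L*er*). Of 16 seed storage and late embryogenesis genes *SESA1* rose and *OLEO3* fell (median -0.08), where 15 rose in *ein6-1 een-1* (median 5.56) and 12 in *een-2* (median 2.28), and 15 were more negative in L*er* than in *ein6-1* and 7 for *een-1* than for *een-2*. The call of *SESA1* was lost when L*er* replicate 1 or 2 or *een-1* replicate 2 was left out, and that of *OLEO3* when any of the 4 libraries was left out and on the deposited TPM. The *een-1* libraries were uneven here, *CRU3*, a cruciferin, reading 792 and 1750 against 1010 and 936 in L*er*, and 7 seed markers summing to 1440 and 3150 against 2080 and 1960. *HSP17.4* was uneven in the same way (18.9 and 42.5 against 20.8 and 19.2), and of 10 heat shock genes *HSP90.1* was called (0.54), a call lost when L*er* replicate 1 or 2 or *een-1* replicate 2 was left out.

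Some flavonoid genes rose with *een-1* in L*er*. Of 11 tested 4 were higher and none lower (median 0.55), and 5 were higher after ET (median 0.72), where 10.7% and 8.47% of all genes were higher. *CHS*, chalcone synthase, which opens the pathway, read 16.7 and 15.5 in L*er* and 25.9 and 30.8 in *een-1* (0.78, adjusted p = 0.013), *FLS1*, flavonol synthase, rose by 0.99, *TT5* by 0.60 and the glycosyltransferase gene *UGT78D1* by 0.86. Of these 4 calls 2 held without L*er* replicate 1 or 2 and 1 without *een-1* replicate 2. *CHS* stood at -0.74 in *ein6-1* and -1.02 in *een-2*. In the tests of the differences 4 members were more positive in L*er* than in *ein6-1* and 1 more positive for *een-1* than for *een-2*.

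Auxin genes moved in both directions. Of 19 tested 5 rose and 4 fell (median 0.03), against 10.7% and 14.0% of all genes, and with the length trend removed 6 were called higher and 2 lower, 5 of the 19 being in the longest quintile. The carrier gene *PIN3* (69.4 and 70.0 against 105 and 103, 0.57), the synthesis gene *TAR2* and the conjugating enzymes *GH3.1* and *GH3.3* were among those that rose. *IAA3*, *IAA19*, *IAA6* and *IAA2*, early repressors of the auxin response, fell, *IAA3* from 272 and 276 to 164 and 167 (-0.72). On the deposited TPM limma called none of those 4 and *IAA2* stood at 0.02, and without 1 library 2 or 3 of the increases and 1 or 2 of the decreases remained.

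Nutrient, defence, glucosinolate and flowering genes held a few calls each, to be read against the 10.7% of all genes that rose and the 14.0% that fell. *PHT1;1*, a phosphate importer, read 42.1 and 42.2 in L*er* and 20.9 and 17.5 in *een-1* (-1.10), the phosphate-starvation RNA *AT4* 73.0 and 65.6 against 32.6 and 35.8, and *SQD2* fell by 0.36 on the log2 scale, while *PHO1*, which loads phosphate into the xylem, rose, so 1 of 11 rose and 3 fell. The call of *PHO1* was lost when any of the 4 libraries was left out and with the length trend removed. Among 15 defence genes *PR4* (160 and 169 against 65.7 and 62.2, -1.35) and *PR3* (-0.53), both of chitin binding or hydrolysis, fell, a share at that of all genes. Of these 15, 4 were called lower with the length trend removed. Among 17 glucosinolate genes *MYB34*, *CYP79B3*, *SOT16* and *SUR1*, all of the indole branch or the shared core, fell by 0.37 to 0.60, and on the deposited TPM none of the 4 was called and *SUR1* stood at 0.00. Among 14 flowering genes *MAF5* rose from 0.489 and 0.554 to 2.18 and 2.13 (1.05), *SVP* by 0.65 and *FLD* by 0.50, and *FLC*, the floral repressor, stood at 4.75 and 4.04 against 4.20 and 4.95. Without 1 library 1 of these 3 increases remained called, and with the length trend removed 2 of the 14 were called, 5 of which are in the longest quintile.

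The labelled tissue was checked by markers. *PORA*, abundant in the dark, read 360 to 809 in all 4 libraries, and the pair of dark-grown markers summed to 416 and 448 in L*er* and 634 and 856 in *een-1*. The 4 dark-repressed markers summed to more, 1240 and 1390 in L*er* and 1350 and 1620 in *een-1*, with *ELIP1* and *CHS* higher (1.00 and 0.78). Nearly all of that sum came from *RBCS1A*, a Rubisco small subunit gene, at 1220 and 1370 in L*er*. The markers of shoot epidermis *FDH*, *CER1* and *LTP1* summed to between 811 and 864 in all 4 with none called, and of 4 genes of flowers and pollen only *AP3* passed the filter, with the 4 summing to at most 1.16. Replicates correlated at 0.987 in L*er* and 0.988 in *een-1* on the log2 scale, above the 0.961 to 0.970 between the groups.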

How the data were processed

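The authors aligned single-end reads to TAIR10 with STAR (2.6.0c, per the labels) and deposited TPM per gene from RSEM; the labels give RSEM version numbers of 1.3.0, 1.3.1, 1.3.8 and 1.3.9, which differ from library to library. TPM keeps no read depth, so depth is unknown and no counting interval is given. Here the 20 L*er*-background libraries (10 groups in air or ET) were rescaled by the median of ratios and fitted together. *een-2* and Col-0 came from a second table and were fitted with its 4 libraries of *ino80-8* and *arp5-1* (8 in all). The allele difference was fitted with the L*er* and *een-1* air libraries added, which the same table repeats (12 in all). Genes that reached 1 TPM in 2 or more libraries entered the tests, on log2(TPM + 1) with limma 3.58.1 (variance trend, R 4.3.3) and Benjamini-Hochberg adjustment at 0.05. Fold changes on this scale understate changes of low genes. Steps around the fits used Python 3.11.15 with pandas 2.3.3 and numpy 2.4.6, and the fit was tested on simulated data.

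Of 33602 gene IDs, 32835 matched the RefSeq TAIR10.1 annotation, whose names, lengths and coordinates are used; primer sequences come from the study's list. How reads of overlapping or duplicated loci were counted, and whether by strand, is not given in the sources used here. The genes named are *EEN*, *AQI*, *EIN2*, *REF6* and the genes around the inversion, the 15 largest increases and decreases among calls whose groups do not overlap and with a group mean of at least 5 rescaled TPM, called members of 18 lists (303 entries matched and 7 were left out, having no matching name), and the named genes with the furthest-apart libraries. *MIR159a*, the genes called in all 4 comparisons and those under other observations were chosen after their values were seen. The members and lists were chosen with earlier results of these data known. Some list members are not reported here by name. The replicate numbers do not pair the libraries.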

Additional observations from a re-analysis of the deposited data

Results flagged for a closer look

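The effect of *een-1* differed between the L*er* and *ein6-1* backgrounds for 2993 genes, and between air and ET for 1 gene, by limma tests of the difference itself. That gene, *MIR159a*, was above 0 only in the L*er* libraries after ET among the libraries compared, and nothing is read from it. Among the genes named, *EIN2* differed by 2.55 on the log2 scale (effect in L*er* minus effect in *ein6-1*) and *FSD1* by 5.82, each with a negative effect in *ein6-1* and, for *FSD1*, a positive one in L*er*. For *FSD1* the L*er* air libraries were low, at 8.05 and 8.84 against 33.7 and 72.2 in *ein6-1*, and the effect after ET was 0.26 (not called). *MRN1* and *THAS1*, the oxidosqualene cyclases that open the marneral and thalianol pathways, differed by -1.85 and -1.20, with the larger decrease in L*er*. The cause was not tested.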

How the results depend on the processing

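Under 11 alternatives beside leaving out a library, 4746 to 5606 genes were called in air, and *AQI* stayed called lower under every alternative run. On the deposited TPM without rescaling, 4343 were higher and 540 lower (4883 in all), *EIN2* turned to 0.10, *IAA2* to 0.02 and *SUR1* to 0.00, the ET comparison gave 1410 called genes, and 0 genes differed between air and ET. Fits of only the groups compared gave 38 genes after ET and 70 for *een-2*, whose count without a minimum TPM was 1213. The single gene that differed between air and ET became 5 with no minimum TPM, and 0 with a minimum of 5 TPM, with a pseudocount of 0.1, without *ein6-1* ET replicate 2 or with any of the 8 libraries left out. Without *ein6-1* ET replicate 2 *EIN2* stood at -0.28 with an adjusted p of 0.044 (limma), and with the length trend removed, an alternative chosen after seeing the data, at -0.55. Leaving out 1 library gave 1746 to 3310 genes in air (6161 without *ein6-1* ET replicate 2, the most), 738 (without *een-1* ET replicate 2) to 5154 after ET (794 without L*er* ET replicate 1), 4320 (without *ein6-1* air replicate 1) to 8373 in *ein6-1*, 376 (without *een-2* replicate 2) to 1601 for *een-2* (735 without Col-0 replicate 1 and 454 without Col-0 replicate 2) and 1876 (without *ein6-1 een-1* replicate 1) to 3743 for L*er* against *ein6-1* (1892 without L*er* replicate 1). *EEN* then ranged from 0.00 (without *een-1* replicate 1) to 0.34 and *EIN2* from -0.36 to -0.20. A fit of only the air libraries could not give the results after ET. The cause of these changes was not tested. Fitting the replicate number as a block gave 5314 genes in air, 4294 after ET, 7506 in *ein6-1*, 2235 for *een-2*, 3188 for L*er* against *ein6-1* and 0 for air against ET, with *EEN* at 0.17, *AQI* at -3.00 and *EIN2* at -0.28; of the 132 named genes *SQD2* lost its call. Deviations of same-numbered libraries of L*er* and *een-1* correlated at 0.14 and over 45 pairs of groups at -0.28 to 0.26, so the numbers are not taken as pairs. Of the 132 named genes, 68 to 102 kept their call without 1 library. Read depth is unknown, so counting error could not be set beside the spread of libraries, and with 2 libraries a side genes that move little cannot be told from unchanged ones.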

Other observations

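Triterpene genes were lower in *een-1* than in L*er*; the gene clusters were picked after their values had been seen. *MRN1* read 260 and 312 in L*er* and 52.8 and 54.2 in *een-1*, a log2 fold change of -2.39 (SE 0.19, adjusted p = 5.2e-06, limma with Benjamini-Hochberg adjustment). Its neighbours *CYP705A12* and *CYP71A16*, both cytochrome P450 genes, changed by -1.85 and -1.21. The thalianol cluster on chromosome 5 moved alike, with *THAS1* at 181 and 198 against 51.3 and 52.1 (-1.86), *CYP708A2* at -1.77, *CYP705A5* at -1.21 and the acyltransferase AT5G47980 at -1.15. These pathways are active in roots, and the root markers summed to 655 and 554 in L*er* and 315 and 267 in *een-1*. The root hair genes *PRP3*, *EXPA18* and *EXPA7* made up most of that sum and were lower, while *PHO1* and *SHR* were higher (0.43 and 0.40). Both of these increases lost their calls without L*er* replicate 1 or either *een-1* replicate. The part of these markers in the result was not tested. In *een-2* none of the 7 was called (-0.19 to 0.60), and all 7 were more negative in *een-1* than in *een-2* in the test of the allele difference. *ein2-45* stood at the other end, with *MRN1* at 916 and 718.

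*AIR1*, an auxin-induced root gene, and *DR4* were among other low genes singled out after their values were seen. *AIR1* read 524 and 525 in L*er*, 106 and 98.7 in *een-1*, 684 and 729 in *ein6-1 een-1* and 3030 and 1960 in *ein2-45*. *DR4*, a protease inhibitor, read 57.4 and 60.5 in L*er*, 11.5 and 10.8 in *een-1* and 8.27 and 10.5 in *ein6-1 een-1*.

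In part of the calls either pair of libraries stood apart from the 8 others, which include the pair it was compared with. Calls require these pairs to differ, so higher shares among calls were built in, and nothing is read from the excess. The L*er* pair lay outside all 8 other air libraries in 33.6% of the increases and 35.1% of the decreases, against 16.5% of all tested genes, and the *een-1* pair in 27.2% and 29.2%, against 12.9%.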
